A study of Mus musculus with 6 samples.

Results

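The genes described here are 10 matricellular genes, namely Ccn1, Ccn2, Ccn3, Ccn4, Sparc, Thbs1, Thbs2, Postn, Tnc and Spp1, out of 20018 genes with a named probe on the array. They were taken by name, with all 13 probes that carried them, and the names were chosen by the KO-minus-WT differences of these same arrays, so their values in that contrast are a description. All 10 had a probe, 9 were detected well above background by 3 or more of the 6 arrays and entered the fit over 15736 genes, and Tnc did not. Macrophages were grown from the bone marrow of C57BL/6 mice for 5 days with 10 ng/mL GM-CSF, a growth factor for granulocytes and macrophages, and 10% bovine serum. Bach1, a heme-binding transcriptional repressor, was knocked out (KO) in 3 mice, labelled KO 947, 948 and 949, and 3 wild-type (WT) mice, WT 1, 2 and 3, served for comparison. All mice were 11 weeks old, each gave 1 Agilent one-colour array, and in each genotype 2 mice were labelled male and 1 female (KO 949 and WT 3). The labels do not give the allele or the cells in which Bach1 was deleted.

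Matricellular proteins are secreted into the extracellular matrix, where they act on cells and growth factors rather than build the scaffold. The CCN proteins bind integrins and heparan sulfate proteoglycans, and Ccn1 and Ccn2 are known targets of the Hippo pathway coactivators YAP and TAZ, of serum response factor and of TGF-beta. Sparc and the thrombospondins bind collagen and shape its fibrils, periostin (Postn) promotes collagen cross-linking, and tenascin C (Tnc) appears in remodelling tissue. Fibroblasts, pericytes and osteoblasts are known sources of most of these proteins. Macrophages are a known source of osteopontin, encoded by Spp1, and of thrombospondin 1.

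Levels below are log2 signals with each array's 75th percentile set to 0, and differences are KO minus WT on the log2 scale with the standard error (SE) of the limma fit. A level is comparable between arrays for 1 probe, not between probes. The lowest level that counted as well above background lay between -6.16 and -5.68 on the 6 arrays. WT 1, 2 and 3 and KO 947 shared a slide and KO 948 and 949 lay on another, so each member is also given as KO 947 minus the WT mean, within 1 slide. A fit with a slide term gives that same difference, with 1 array in its KO arm and the spread taken from the other arrays, and adds no independent support. Spots well above background made up 62.5% to 65.1% of the KO arrays and 70.3% to 73.2% of the WT arrays. The Bach1 probe read 1.45, 2.00 and 2.23 on KO 947, 948 and 949, against 2.21, 2.48 and 2.59 on WT 1, 2 and 3, and no label gives its place relative to the deleted part. Of 11 tested macrophage markers none passed the test (none at an unadjusted p under 0.05 either), and their summed signal, in units of the 75th percentile, was 805 to 932 on KO arrays and 731 to 1001 on WT arrays. The macrophage markers with the largest differences in size were the lysozyme gene Lyz2 (0.32, limma adjusted p = 0.305) and Ptprc, which encodes CD45 (-0.24, adjusted p = 0.654).

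Promoter sequences are shown for Ccn1 and Sparc, which were low on all KO arrays, and for Spp1, which was high on all KO arrays. RefSeq windows (build GRCm38.p6) were found for 6 of the 10 genes. Printed are the 250 bases before the start site, 5′ to 3′ on the strand of the gene, of Ccn1 (chr3:145649986-145650235, minus strand), Sparc (chr11:55420081-55420330, minus strand) and the upstream of the Spp1 windows (chr5:104434861-104435110, plus strand). Capitals mark matches to any of 5 motifs searched on both strands.
Ccn1: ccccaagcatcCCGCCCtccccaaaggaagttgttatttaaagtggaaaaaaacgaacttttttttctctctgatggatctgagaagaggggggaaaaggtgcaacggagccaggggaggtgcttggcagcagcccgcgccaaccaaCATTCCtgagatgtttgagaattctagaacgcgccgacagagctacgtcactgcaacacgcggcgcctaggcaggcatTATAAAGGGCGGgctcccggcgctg
Sparc: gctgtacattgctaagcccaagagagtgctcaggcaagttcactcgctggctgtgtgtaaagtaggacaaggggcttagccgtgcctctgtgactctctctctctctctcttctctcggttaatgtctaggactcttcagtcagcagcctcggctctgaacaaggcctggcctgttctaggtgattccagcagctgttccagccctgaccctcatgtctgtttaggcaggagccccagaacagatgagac
Spp1: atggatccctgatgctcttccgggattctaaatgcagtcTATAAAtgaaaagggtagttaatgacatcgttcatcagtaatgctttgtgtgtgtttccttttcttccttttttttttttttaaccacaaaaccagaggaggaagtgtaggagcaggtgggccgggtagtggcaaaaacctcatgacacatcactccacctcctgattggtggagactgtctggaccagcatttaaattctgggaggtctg
The motifs were TATAAA for the TATA box, GGAATG for TEAD factors, TGANTCA for AP-1, GCTGAGTCA for the core of the Maf recognition element that Bach1 and small Maf proteins bind, and GGGCGG for the GC box. AP-1 letters lie within the Maf element, so those searches overlap. In the Ccn1 window, TATAAA began 25 bases before the start site, next to a GGGCGG, and the TEAD letters stood on the opposite strand as CATTCC, 103 bases before it. A second GC box stood there on the opposite strand as CCGCCC, 239 bases before it. GC box letters were in 2 of the 6 genes, Ccn1 and Tnc. TATAAA occurred in 12.4% of all 32851 RefSeq windows of this length, GGAATG in 12.6% and GGGCGG in 32.7%. TATAAA was in 6 of the 9 windows, covering 5 of the 6 genes. It lay 26 bases before a Postn start site, 126 before that of Thbs2 (opposite strand), and 205 and 126 before those of Tnc. In the Spp1 window it lay 211 bases before. The AP-1 letters (6.75% of all windows) and the Maf element letters (0.390%) were in none of the 9 windows of the 6 genes, and the Sparc window held none of the 5 motifs. A match is a description of these letters and not of a bound site.

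The CCN genes held both the lowest and the highest difference among the members tested. Ccn2, which encodes connective tissue growth factor, a promoter of matrix synthesis, read -7.47, -6.10 and -7.29 on KO 947, 948 and 949, against 2.94, 3.00 and 0.44 on WT 1, 2 and 3. No KO array and all WT arrays read it well above background. The difference was -9.08 ± 0.74 (SE, n = 3 mice per genotype, limma adjusted p = 0.00930), the lowest of all 15736 genes. Since the KO level was under detection, an approximate bound was used, by which Ccn2 was at least 271-fold lower in KO. This bound sets the WT mean against, per KO array, the higher of the lowest level well above background and the measured value. It is not strict, since a probe can read above that lowest level undetected. Thbs2 did so on KO 948 (-5.64 against -6.09). With another background correction (normexp) and quantile normalization, the Ccn2 difference was -6.30. Folds given below as at least a value are approximate bounds of the same kind. KO 947 minus the WT mean, on the shared slide, was -9.60, with an adjusted p of 0.0450 in the fit with a slide term, where KO 947 alone stands for KO.

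Ccn1, which encodes the immediate early CCN protein CYR61, was detected on every array. It read -2.54, -2.22 and -2.13 on KO 947, 948 and 949, against 0.65, 0.97 and -1.44 on WT 1, 2 and 3. The genotypes did not overlap, yet WT 3 lay nearer to the KO arrays than to WT 1 and WT 2. The difference of -2.36 ± 0.60 (95% interval -3.79 to -0.92, n = 3 per genotype) did not pass limma's test (adjusted p = 0.0915). Without WT 3 it was -3.11 (adjusted p = 0.00411), but with any other array left out it did not pass (adjusted p 0.123 to 0.261). KO 947 minus the WT mean was -2.60.

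Ccn4, known as the Wnt-induced gene WISP1, had 2 probes. The brighter one read -5.96, -7.78 and -7.57 on KO 947, 948 and 949, against -2.26, -1.66 and -5.48 on WT 1, 2 and 3, with no KO array and all WT arrays well above background. WT 3 stood just above the KO arrays. The difference of -3.97 ± 1.02 did not pass (limma adjusted p = 0.0926, n = 3 per genotype), the bound was at least 7.10-fold lower in KO, and KO 947 minus the WT mean was -2.84. Without WT 3 the difference was -5.15 (adjusted p = 0.0215), but with any other array left out it did not pass (adjusted p 0.0739 to 0.263). The second probe was well above background on WT 2 only, at -4.13, and did not enter the fit.

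Ccn3, which encodes NOV, a CCN protein known to restrain proliferation, lay the other way. It read 1.45, 1.84 and 2.04 on KO 947, 948 and 949, against 0.05, 0.94 and -1.11 on WT 1, 2 and 3. All arrays detected it and the genotypes did not overlap, with a WT range of 2.05 and a KO range of 0.60. The difference of 1.82 ± 0.49, or 3.53-fold, did not pass (limma adjusted p = 0.105, 95% interval 0.65 to 2.99), and KO 947 lay 1.49 above the WT mean.

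Sparc, which encodes the collagen-binding protein osteonectin, had the second lowest difference of all genes tested. Its brighter probe read -5.09, -4.96 and -4.59 on KO 947, 948 and 949, against 3.78, 3.79 and 1.31 on WT 1, 2 and 3. All 6 arrays were well above background with this probe, though the KO levels were not far above the lowest detected ones (-6.16 to -5.68). The size of its fold is therefore uncertain, and with normexp and quantile normalization the difference was -6.44. It was 229-fold lower in KO, with a difference of -7.84 ± 0.66 (n = 3 per genotype, limma adjusted p = 0.00930) and a 95% interval of -9.40 to -6.28. The other probe read -7.45, -7.76 and -7.55 on the KO arrays, none well above background, against 1.06, 1.36 and -1.76 on the WT arrays. Its difference was -7.81 ± 0.78 (adjusted p = 0.0106 in the fit of every probe), at least 72.3-fold lower in KO. The KO level of this probe is only a bound, so its difference does not check the size given by the brighter probe. WT 3 was the lowest WT array on both. KO 947 minus the WT mean was -8.05 with the brighter probe, with an adjusted p of 0.0486 in the fit with a slide term, again with 1 KO array.

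**Figure D1:**
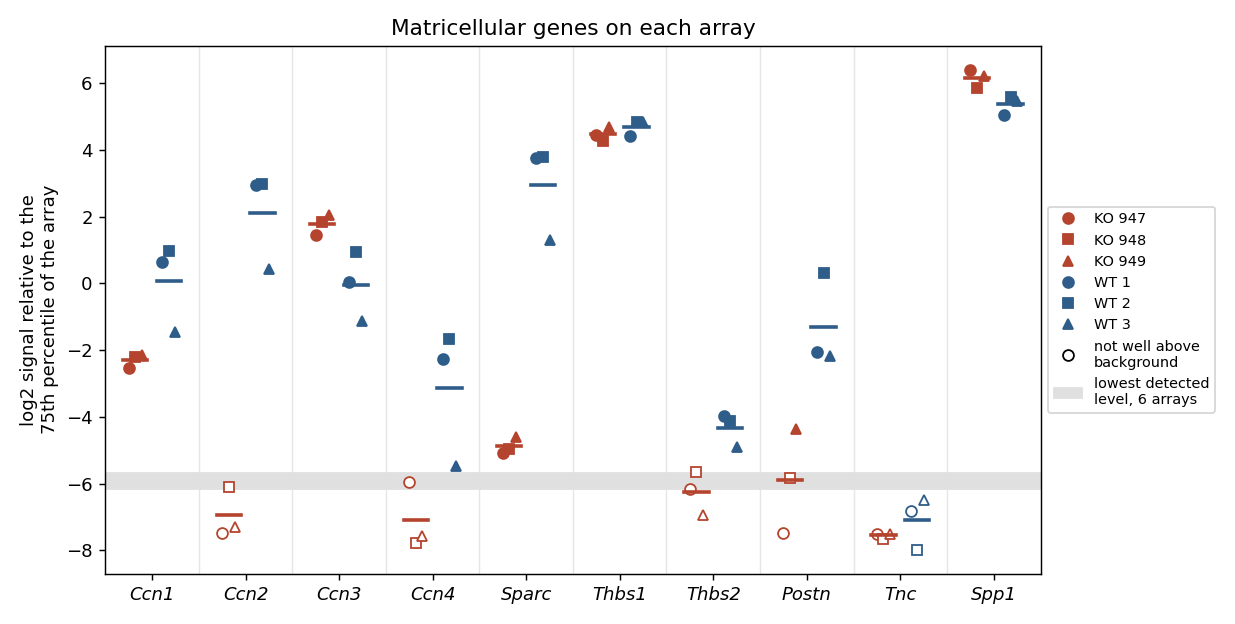
Log2 signal against the array's 75th percentile (vertical axis) of the brighter probe of each of the 10 genes on the KO arrays (red) and the WT arrays (blue). Horizontal bars are means of 3 arrays, open symbols are not well above background, and the grey band spans the lowest detected levels (-6.16 to -5.68); levels are to be read within a gene. Ccn2 is open on all 3 KO arrays and filled on all WT arrays, and WT 3 (blue triangles) lies under WT 1 and WT 2 in Ccn1, Ccn2, Ccn4 and Sparc.

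The thrombospondins differed from each other. Thbs1, which encodes an activator of latent TGF-beta and a ligand of CD36 and CD47, read 4.45, 4.28 and 4.68 on KO 947, 948 and 949, against 4.42, 4.84 and 4.85 on WT 1, 2 and 3. The genotypes overlapped, and the difference of -0.24 ± 0.19 (n = 3 per genotype, limma adjusted p = 0.533) had a 95% interval of -0.69 to 0.21. Thbs2, an antiangiogenic thrombospondin of connective tissue, read -6.17, -5.64 and -6.95 on KO 947, 948 and 949, none well above background, against -3.97, -4.12 and -4.92 on the WT arrays, all well above it. Its difference was -1.92 ± 0.39 (adjusted p = 0.0524), at least 2.77-fold lower in KO, and KO 947 minus the WT mean was -1.84. It passed with sex as a covariate (adjusted p = 0.0191).

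Periostin was detected on 1 of 3 KO arrays. Postn read -7.47, -5.84 and -4.35 on KO 947, 948 and 949, of which only KO 949 was well above background, against -2.05, 0.32 and -2.19 on WT 1, 2 and 3. The KO arrays spanned 3.12 and all lay under the WT arrays. The difference was -4.58 ± 0.94 (n = 3 per genotype, limma adjusted p = 0.0537), and KO 947 minus the WT mean was -6.17. Tnc was not well above background on any of the 6 arrays with either of its probes, which read -7.98 to -6.49, and was not tested.

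Spp1, a cytokine-like ligand of CD44 and of integrins, was above the 75th percentile on every array. It read 6.40, 5.87 and 6.22 on KO 947, 948 and 949, against 5.06, 5.58 and 5.48 on WT 1, 2 and 3. The lowest KO array, KO 948, stood above the highest WT array, WT 2. The difference of 0.79 ± 0.21, or 1.73-fold, did not pass (limma adjusted p = 0.105, n = 3 per genotype, 95% interval 0.29 to 1.30), and KO 947 lay 1.03 above the WT mean.

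Of the 9 members tested, 2 passed the limma test, both lower in KO, where over all 15736 genes 3.41% passed, 2.27% lower and 1.14% higher. These were 357 lower and 180 higher genes, and 230 lower and 384 higher when arrays were scaled to their median instead, which moved the median of all genes to 0.21. No member passed as higher, although Ccn3 and Spp1 had an unadjusted p under 0.05, and with array weights or with trend and robust eBayes 1 member passed as higher. The genotypes did not overlap in 8 of 9 members, against 26.8% of all genes, and all KO arrays lay below all WT arrays in 6, against 13.4%. Since that contrast chose the genes, nothing is read from these shares. Ccn2, Ccn4 and Thbs2 passed the filter through the WT arrays alone, and Postn through them and 1 KO array, so a difference in them was partly set by entering the fit.

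WT 3 was the lowest WT array in 7 of 9 members tested, the exceptions being Thbs1 and Spp1, against 5606 of all 15736 genes. WT 3 minus the mean of WT 1 and WT 2 was -2.26 in Ccn1, -2.53 in Ccn2, -3.52 in Ccn4 and -2.47 in Sparc. Without WT 3, 4 members passed as lower, which were Ccn1, Ccn2, Ccn4 and Sparc, against 220 of all 15736 genes. With any other array left out, 2 members passed as lower. WT 3 was also the female of its genotype. Among males (2 per genotype) the difference was -8.81 for Sparc and -3.19 for Ccn1, against -5.90 and -0.69 between the single females. In a fit with an interaction of genotype and sex, no member's interaction passed limma's test (adjusted p of 0.332 or above), and sex and array cannot be told apart for WT 3.

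**Figure D2:**
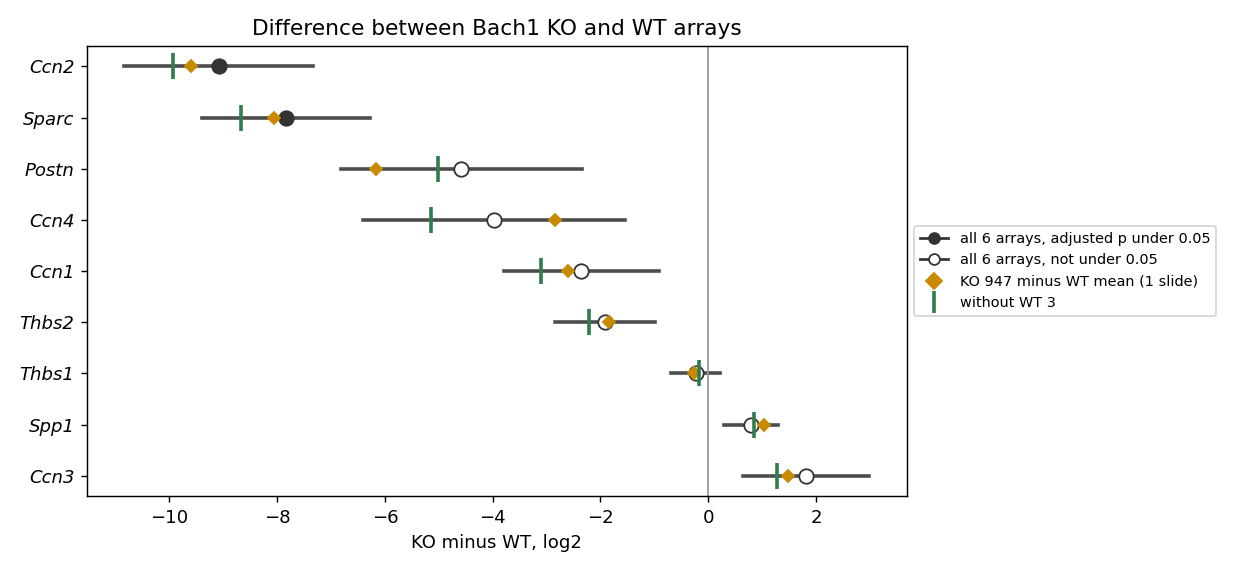
KO minus WT difference on the log2 scale (horizontal axis) of the 9 genes tested, with 95% intervals from limma (lines), filled circles at an adjusted p under 0.05. Diamonds give KO 947 minus the WT mean, within 1 slide, and green bars the difference without WT 3, which was -3.11 for Ccn1 and -5.15 for Ccn4; all 3 values have the same sign in every gene.

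Further genes of the same families were given by a list of 26, of which 19 entered the fit, with 2 lower, 1 higher and 16 not passing, and a median difference of -0.50 (-0.055 with a slide term), against -0.01 over all genes. Fbln2, which encodes the microfibril and basement membrane protein fibulin 2, read -2.72, -3.08 and -3.10 on KO 947, 948 and 949, against 1.62, 1.63 and 0.36 on WT 1, 2 and 3, and fell by 4.17 ± 0.36 (n = 3 per genotype, limma adjusted p = 0.00930). Comp, a thrombospondin of cartilage, read -0.46, -0.90 and -1.50 on the KO arrays, against 0.81, 1.50 and 0.83 on the WT arrays, and fell by 2.00 ± 0.32 (adjusted p = 0.0292). Fn1, which encodes fibronectin, the integrin ligand that many matricellular proteins bind, rose. It read 5.81, 5.88 and 6.15 on KO arrays, against 4.61, 4.35 and 3.53 on WT arrays, a difference of 1.78 ± 0.29 (adjusted p = 0.0318), and WT 3 was the lowest WT array. With a slide term these differences were -3.92, -1.51 and 1.65 and none passed. The count of 3 dropped to 1 without WT 1, WT 2, KO 948 or KO 949.

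**Figure D3:**
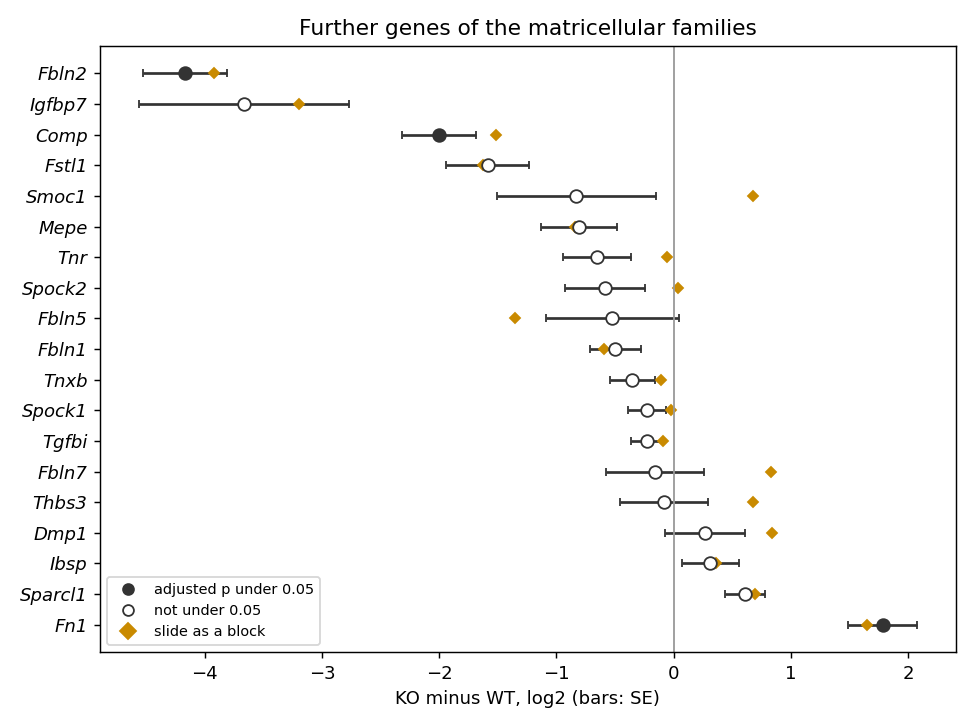
KO minus WT difference on the log2 scale (horizontal axis) of 19 further genes of the matricellular families, with SE bars and filled circles at an adjusted p under 0.05. Diamonds give the difference with a slide term; Fbln2 and Comp lie left of 0, Fn1 right of it, and for 4 genes the diamond lies on the other side of 0 from the circle.

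Of 21 cell surface receptors known to bind these proteins, 20 were tested and none passed (1 lower and 2 higher at an unadjusted p under 0.05), with a median difference of 0.08. The differences of largest size were those of Sdc4, which encodes a heparan sulfate proteoglycan (-1.31, limma adjusted p = 0.126), and of the laminin-binding integrin subunit Itga6 (0.90, adjusted p = 0.156). Without KO 947, 1 receptor passed.

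Among factors known to act on CCN promoters and their other targets, 15 of 20 were tested, of which 1 fell, none rose and 14 did not pass, with a median of -0.22 (-0.037 with a slide term). Tead2, a DNA-binding partner of YAP, read -3.19, -3.34 and -2.65 on KO arrays, against -1.60, -2.00 and -2.00 on WT arrays, and fell by 1.19 (limma adjusted p = 0.0459). It lost the call without WT 1, WT 2, WT 3 or KO 948 and with a slide term. Ankrd1, a YAP target like Ccn1 and Ccn2, and Wwtr1, which encodes TAZ, were each above background on no more than 1 array and were not tested. Of 20 TGF-beta pathway genes, 19 were tested and 2 fell, with none higher and a median of -0.044 (-0.24 with a slide term). They were Ltbp2, a latent TGF-beta binding protein of elastic fibres (-3.21 ± 0.46, adjusted p = 0.0220), and the ligand Tgfb2 (-3.83 ± 0.69, adjusted p = 0.0416), which 1 of 3 KO arrays detected. Neither passed without WT 1, WT 2, KO 948 or KO 949, or with a slide term.

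The genes whose profile over the 6 arrays lay nearest to Ccn2, by Euclidean distance between log2 profiles centred on their means, were Serpinh1 (3.73), Prss23 (3.94), Col1a1 (4.35), Col1a2 (4.54), Col5a3 (5.00) and Lurap1l (5.33), among 15701 genes with a value on every array. Nearest to Sparc were Prss23 (2.29), Serpinh1 (2.34), Col1a1 (2.79), Col1a2 (2.90), Col5a3 (3.62) and Myl9 (3.87). Serpinh1 encodes the collagen chaperone HSP47, Col1a1, Col1a2 and Col5a3 encode fibrillar collagen chains, and Myl9 encodes a myosin light chain of smooth muscle and myofibroblasts. The measure compares size as well as shape, and all these genes were lower on KO arrays, with differences of -6.08 (Prss23) to -4.70 (Myl9). Ccn2 and Sparc had the lowest differences of all genes, so nearness to them was largely set by the size of the fall. That is the contrast by which the members were chosen, so the ranking is a description and no shared regulation is read from it.

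Markers of other cell types that the cultures could hold were read beside the members. Of 16 markers of fibroblasts and marrow stromal cells, 14 were tested and 5 fell, with 9 not passing and a median of -2.75. These were Col1a1 (-5.62, limma adjusted p = 0.0191), Col1a2 (-5.55, adjusted p = 0.00930), Col6a1 (-3.27, adjusted p = 0.0183), Col5a1 (-2.98, adjusted p = 0.0383) and Loxl1 (-1.10, adjusted p = 0.0442). Of the 14, 13 had a difference below 0. Lepr (0.05, adjusted p = 0.949) and Mmp2 (-0.14, adjusted p = 0.847) lay near 0. Dcn (-1.21, adjusted p = 0.694) overlapped, with KO 948 at -0.03 between WT 1 (0.16) and WT 2 (-0.21). The summed signal of the stromal markers was 4.20 to 7.32 on KO arrays and 10.5 to 20.9 on WT arrays. WT 3 had the lowest WT sum here, and also over all genes tested and in every other list except those of YAP and SRF, of osteoblasts, and of eosinophils, mast cells and basophils. Lum was not well above background on any array and Pdgfra on no more than 2. The count of 5 was 1 without WT 1, WT 2 or KO 948 and 3 without KO 947 or KO 949, and the count was 0 with a slide term.

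Of 10 smooth muscle and pericyte markers, 6 were tested and 2 fell, with 4 not passing. They were Cnn1, which no KO array read well above background and which entered the fit through the WT arrays alone (at least 14.8-fold lower in KO, limma adjusted p = 0.00930), and Myl9 (-4.70, adjusted p = 0.0114). With a slide term, which rests on KO 947 alone, Cnn1 passed (adjusted p = 0.0406) and Myl9 did not (adjusted p = 0.0737). The summed signal of the smooth muscle list was 5.10 to 5.84 on KO arrays and 8.85 to 26.8 on WT arrays. Acta2, the brightest marker of this list on every array, weighed most in these sums (-1.43, limma adjusted p = 0.121). In bulk RNA, fewer cells of a type and less RNA per cell cannot be told apart, and the part of stromal and smooth muscle cells in the differences of the members was not tested.

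**Figure D4:**
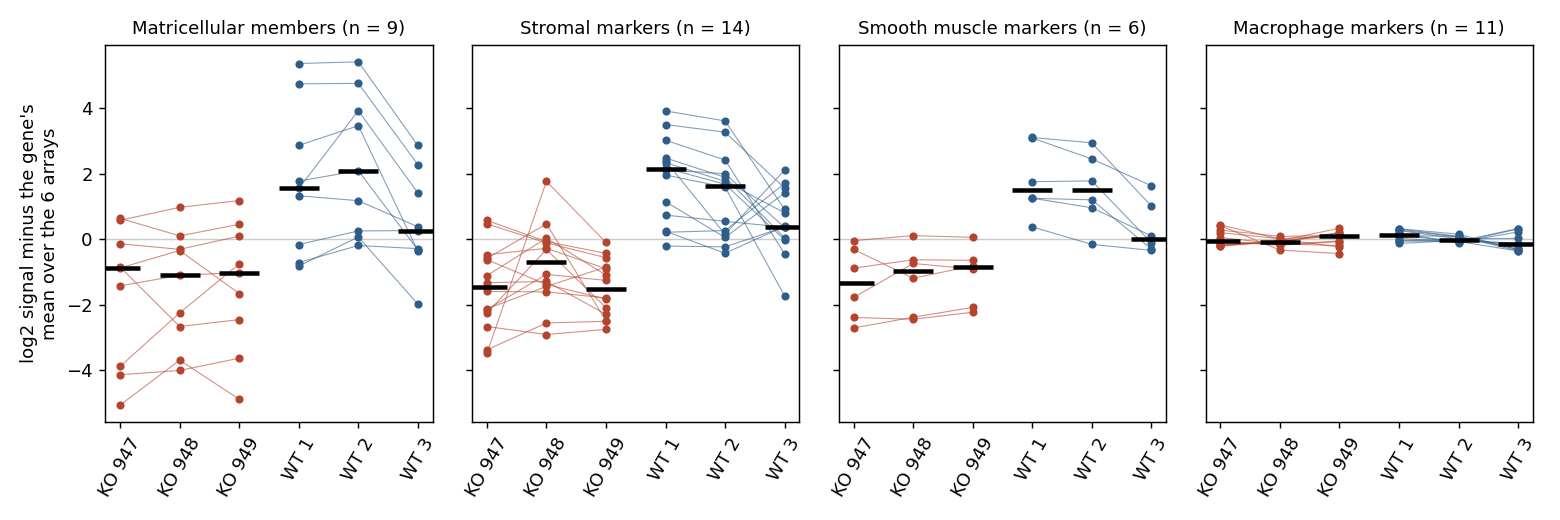
Log2 signal of each gene minus its mean over the 6 arrays (vertical axis) on KO arrays (red, left) and WT arrays (blue, right) for the 9 members tested, 14 stromal, 6 smooth muscle and 11 macrophage markers. Thin lines join values of 1 gene within a genotype and black bars are medians; on WT 3 the members, stromal and smooth muscle markers have a lower median than on WT 1 and WT 2, and the macrophage markers stay near 0 on all arrays.

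Cells of bone and blood were read from further lists. Of the osteoblast markers, 2 of 7 were tested and none passed (1 lower at an unadjusted p under 0.05). Runx2 had a difference of -1.09 (limma adjusted p = 0.103) and Sp7 of -0.19 (adjusted p = 0.550), both transcription factors of that lineage. No KO array read Runx2 well above background, so it entered the fit through the WT arrays alone (at least 1.65-fold lower in KO). Alpl, Phex, Col11a1 and Omd were not well above background on any array. None of 8 osteoclast markers tested passed (1 lower at an unadjusted p under 0.05), with a summed signal of 239.8 to 264 on KO arrays and 230.4 to 279 on WT arrays. Dcstamp, which encodes a fusion protein of osteoclasts, had a difference of -0.60 (adjusted p = 0.0967) and the cathepsin gene Ctsk of -0.33 (adjusted p = 0.381). Megakaryocyte and platelet markers, the cells that store thrombospondin 1, had 7 tested and none passing, also at an unadjusted p under 0.05, with the platelet receptor genes Gp6 at -0.71 (adjusted p = 0.466) and Clec1b at 0.42 (adjusted p = 0.294). Of 7 endothelial markers tested, Robo4 (-4.01, detected on 1 of 3 KO arrays, limma adjusted p = 0.0331) and Flt1 (-1.08, adjusted p = 0.0485) fell. The other 5 did not pass, which were Kdr (0.01), Vwf (-0.10), Pecam1 (-0.29), Cdh5 (-0.62) and Esam (-1.47). Tek, Emcn and Tie1 were not well above background on any array. Dendritic cell markers had 10 tested and 3 lower, Ccr7 (-2.60, adjusted p = 0.00930), Cd83 (-1.99, adjusted p = 0.0103) and Ciita (-1.89, adjusted p = 0.0103). Eosinophil, mast cell and basophil markers had 10 tested and 3 lower, Prss34 (-3.49, adjusted p = 0.0406), Kit (-3.23, adjusted p = 0.0420) and Mcpt8, which passed the filter through the WT arrays alone (no KO array well above background, at least 19.98-fold lower in KO, adjusted p = 0.0254). Of 9 neutrophil markers tested, S100a9 fell (-1.01, adjusted p = 0.0256). Siglecf (0.47) and Cd200r3 (0.18) lay above 0 and the other 8 eosinophil, mast cell and basophil markers below it. Median differences were -0.70 for the dendritic list, -2.87 for eosinophils, mast cells and basophils, and -0.90 for neutrophils. With a slide term, which rests on KO 947 alone, these medians were -0.60, -0.91 and -0.97. For the dendritic, the eosinophil, mast cell and basophil, and the neutrophil list, in that order, summed signals were 292 to 332, 7.33 to 23.4 and 155 to 171 on KO arrays. On WT arrays they were 401 to 504, 25.9 to 55.7 and 214 to 235, without overlap. The endothelial and megakaryocyte sums overlapped between genotypes. With a slide term, which rests on KO 947 alone, only Ciita kept its call among the endothelial, dendritic, granulocytic and mast cell genes that fell. The part of these cell types in the members' differences was not tested.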

How the data were processed

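Each of 6 mice gave 1 one-colour array. The authors deposited spot intensity values, background-subtracted and spatially detrended by Agilent Feature Extraction per the file headers. Its version is 10.7.3.1 in those headers, while the submitters' processing notes give 9.1. A deposited table of 3215 probes, all separating the genotypes, holds log2 values that the authors centred per probe (column medians -0.10, -0.13 and -0.13 for KO and 0.14, 0.11 and 0.11 for WT). Scale and direction were checked against the scanner values; how arrays were scaled is not stated in the sources used here. It held Ccn1, Ccn2, Ccn3 and Sparc and served as an alternative.

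Here, log2 processed signal minus the array's log2 75th percentile was averaged over the spots of a probe, without outlier spots (0.196% to 0.386%). No spot was saturated. Names came from transcript accessions through RefSeq (GRCm38.p6; 26413 of 55681 probes matched). Probes had to be well above background (in a majority or an equal share of their spots) on 3 of 6 arrays, and the brightest such probe stood for a gene. Genotypes were compared with limma 3.58.1 (lmFit, eBayes) in R 4.3.3 by a two-sided test, with p-values adjusted by Benjamini-Hochberg over 15736 genes (35 with 1 missing value) and a threshold of 0.05. Arrays number 3 per genotype, which limits precision. The fit was tested on simulated data. Sex was read as an interaction.

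The members, the 14 gene lists and the rule for named genes (all members; per list, up to 8 genes past the threshold or, where none passed, the 2 of largest size; the 6 genes nearest to Ccn2 and to Sparc; Bach1) were chosen with earlier results of these data known. Ankrd1, Wwtr1, Lepr, Mmp2, Dcn, Acta2, Siglecf, Cd200r3, the endothelial genes that did not pass and the markers below background were named outside that rule, after their values were seen. Bglap, Cd68, Itgae and Ly6g had no named probe here. Arrays labelled male only were added as an alternative after seeing the data. Normexp ran on median spot signals.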

Additional observations from a re-analysis of the deposited data

How the results depend on the processing

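Ccn2 passed in all 20 alternatives that gave it a value (differences -9.92 to -6.30, adjusted p 0.000753 to 0.0450; a filter on all 6 arrays leaves it out) and Sparc in all 21 (-8.81 to -6.44, adjusted p 0.000369 to 0.0486). Ccn1 passed in 6 of 21 (adjusted p 0.00411 to 0.261), Ccn4 in 4 of 19 (0.0208 to 0.360), Thbs2 in 4 of 19 (0.0191 to 0.208), Postn in 3 of 19 (0.0216 to 0.148), Ccn3 in 2 of 21 (0.0120 to 0.349), Spp1 in 1 of 20 (0.0372 to 0.317) and Thbs1 in 0 of 20 (0.338 to 0.960). No member changed direction in any alternative that gave it a value. The authors' table holds only probes that separate the genotypes, and 1740 of its 1844 genes passed. A pass in it was therefore largely set in advance, and counts from it are not comparable with those over 15736 genes. The threshold of 0.1 was applied to the unchanged main fit. Passes in these settings do not show that a result withstands other processing. Members lower in KO, 2 in all, numbered 1 with the filter on all 6 arrays (5 members tested), 5 with trend and robust eBayes, 6 with array weights, 6 at a threshold of 0.1, 4 on arrays labelled male only (chosen after seeing the data) and 2 to 4 with 1 array left out. Members higher, 0 in all, numbered 1 with trend and robust eBayes, 1 with array weights and 1 with the authors' table (4 members tested). The cause of these moves was not tested. More genes entered without a filter (20018) and fewer with the filter on all 6 arrays (14113), against 15736. Fewer arrays entered where an array was left out. Genes changed, 537 in all, numbered 342 with quantile normalization, 275 without a filter, 84 with the slide as a fixed block, 255 as a random block, 305 with sex as a covariate, 810 with trend and robust eBayes, 1747 with array weights, 1740 with the authors' table, 1151 at 0.1, 182 on male arrays and 77 to 900 with 1 array left out. Scaling to the array median moved the median of all genes to 0.21 and turned the split into 230 lower and 384 higher, against 357 and 180. The other matricellular genes, 3 in all, numbered 1 without a filter, 0 and 1 with the fixed and random slide block, 5 with trend and robust eBayes, 5 with array weights, 5 at 0.1 and 1 to 4 with 1 array left out. Receptors, 0 in all, numbered 1 with array median scaling, with probes averaged per gene or with each probe fitted, 2 with array weights, 4 with the authors' table and 0 to 1 with 1 array left out. YAP and SRF genes, 1 in all, numbered 0 with quantile normalization, array median scaling, normexp, no filter, either slide block or sex as a covariate, 2 with probes averaged or each fitted, 4 with array weights, 3 with the authors' table and 0 to 1 with 1 array left out. TGF-beta genes, 2 in all, numbered 1 with quantile normalization, the filter on all 6 arrays, the random block or sex, 0 with the fixed block, 5 with array weights, 4 with the authors' table, 4 at 0.1 and 0 to 2 with 1 array left out. Stromal markers, 5 in all, numbered 3 with quantile normalization, no filter or the random block, 0 with the fixed block, 8 with trend and robust eBayes, 8 with array weights, 9 at 0.1 and 1 to 7 with 1 array left out. No paired analysis was possible because the replicate numbers of KO and WT mice are not shared. Signal over background limits Ccn2, Ccn4 and Thbs2 to approximate bounds and leaves Tnc without a test.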
